A study of Mus musculus with 52 samples.

Results

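The response of mouse type 1 conventional dendritic cells (cDC1) to prostaglandin E2 (PGE2) after 24 h was set against the response after 4 h, gene by gene, to find which changes passed, which lasted and which came late. The quantity was the PGE2 effect at 24 h minus the PGE2 effect at 4 h, where each effect is PGE2-treated over untreated cells of the same time. It rested on 4 of the 13 groups of the series, chosen by their labels, and on 16 of its 52 libraries. These were cells given PGE2 at 100 ng/ml for 4 h, cells left untreated for 4 h, cells given PGE2 at 100 ng/ml for 24 h and cells left untreated for 24 h, with 4 libraries in each group. All 4 groups were grown from C57BL/6 bone marrow in FLT3L and GM-CSF and sorted on CD103, so they model cDC1 made in culture and hold no tumor. Libraries outside these 4 groups gave a comparison in cells that the difference did not use. They were cells given PGE2 for 24 h with poly I:C, a double-stranded RNA mimic, at 10 ug/ml in the last 4 h, against cells given poly I:C alone. They also included cells kept for 4 h in medium conditioned by control BRAFV600E melanoma cells, against medium from melanoma cells lacking Ptgs1 and Ptgs2, the cyclooxygenase genes that PGE2 synthesis needs.

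PGE2 binds 4 G protein-coupled receptors. EP2 and EP4 raise cyclic AMP, which activates protein kinase A and the transcription factor CREB, while EP3 mostly lowers cyclic AMP. Cyclic AMP signals tend to be brief, because they induce phosphodiesterases and the CREM repressor that shut them off. cDC1 depend on the transcription factors IRF8 and BATF3, cross-present antigen to CD8 T cells and migrate to lymph nodes through the chemokine receptor CCR7.

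Transcripts were counted by unique molecular identifiers (UMIs) at the 3′ end. The 16 libraries held 54107 to 332616 UMIs, with a median of 301956; replicate A of untreated cells at 4 h was the shallowest and the next held 174587. A count of 0 allows up to 3 counts, which is 9.9 CPM (the count scaled to a common library size) at the median depth and 55.4 CPM in the shallowest library, counting error only. Replicates of a group differed by more than sampling noise in all 24 pairs (chi-square per degree of freedom from 1.409 to 2.08). The labels call them biological replicates without saying whether they came from separate animals or cultures, so the spread behind the p-values is that of these libraries and may be technical. The 4 groups carried cDC1 transcripts: 23 listed cDC1 genes were tested and summed to between 8585 and 14610 CPM, lower with PGE2 at both times. Listed macrophage and monocyte genes summed to between 1060 and 2457 CPM and cDC2 genes to between 77.8 and 334.5 CPM, both highest with PGE2 at 24 h. Defining genes of granulocytes and mast cells summed to at most 6.52 CPM in any library.

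The PGE2 effect differed between 24 h and 4 h for 235 of 5403 genes tested (4.35%), of which 114 (2.11%) had a higher and 121 (2.24%) a lower effect at 24 h. At 4 h alone, 527 genes (9.75%) were called, 298 of them higher (5.52%) and 229 lower (4.24%) in PGE2-treated than in untreated cells. At 24 h alone, 421 genes (7.79%) were called, 218 of them higher (4.03%) and 203 lower (3.76%). A call is an adjusted p of at most 0.05 in edgeR's quasi-likelihood test with Benjamini-Hochberg adjustment over the 5403 genes, and every adjusted p given here comes from that test. With the added log2 limit of 1.5 that the submitters name, 95 genes (1.76%) remained for the difference, 148 (2.74%) at 4 h and 88 (1.63%) at 24 h. The median log2 value over all tested genes was -0.02 at 4 h, -0.00257 at 24 h and 0.01 for the difference. Scaling by library totals in place of TMM moved these medians to -0.14 at 4 h and 0.129 for the difference, and split the calls for the difference into 176 higher and 90 lower and those at 4 h into 244 higher and 396 lower. The 4 libraries of PGE2-treated cells at 4 h had TMM factors of 0.921 to 0.969, against 0.984 to 1.089 in the other 12.

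Genes fell into classes by these 3 calls. A transient gene was called at 4 h and for the difference but not at 24 h, and there were 103 (1.91%), 48 higher (0.888%) and 55 lower (1.02%) in PGE2-treated cells at 4 h. A late gene was called at 24 h and for the difference but not at 4 h, and there were 69 (1.28%), 27 higher (0.500%) and 42 lower (0.777%) in PGE2-treated cells at 24 h. Late genes numbered 43 without replicate B of PGE2-treated cells at 24 h and 42 with DESeq2. With library totals the transient genes split into 39 higher and 98 lower and the late genes into 37 higher and 31 lower. A sustained gene was called in 1 direction at both times, and there were 150 (2.78%), 104 higher (1.92%) and 46 lower (0.851%). Of the sustained genes, 5 (0.0925%) had a larger effect at 24 h. A smaller effect at 24 h was found for 26 (0.481%), 19 higher (0.352%) and 7 lower (0.130%), and for 119 (2.20%) the difference was not called, 80 higher (1.48%) and 39 lower (0.722%). Another 6 genes (0.111%) changed in opposite directions, 3 of them (0.0555%) higher at 24 h. The remaining calls did not settle a course: 464 genes (8.59%) were called at 1 time with no called difference, and 26 (0.481%) for the difference alone.

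**Figure D1:**
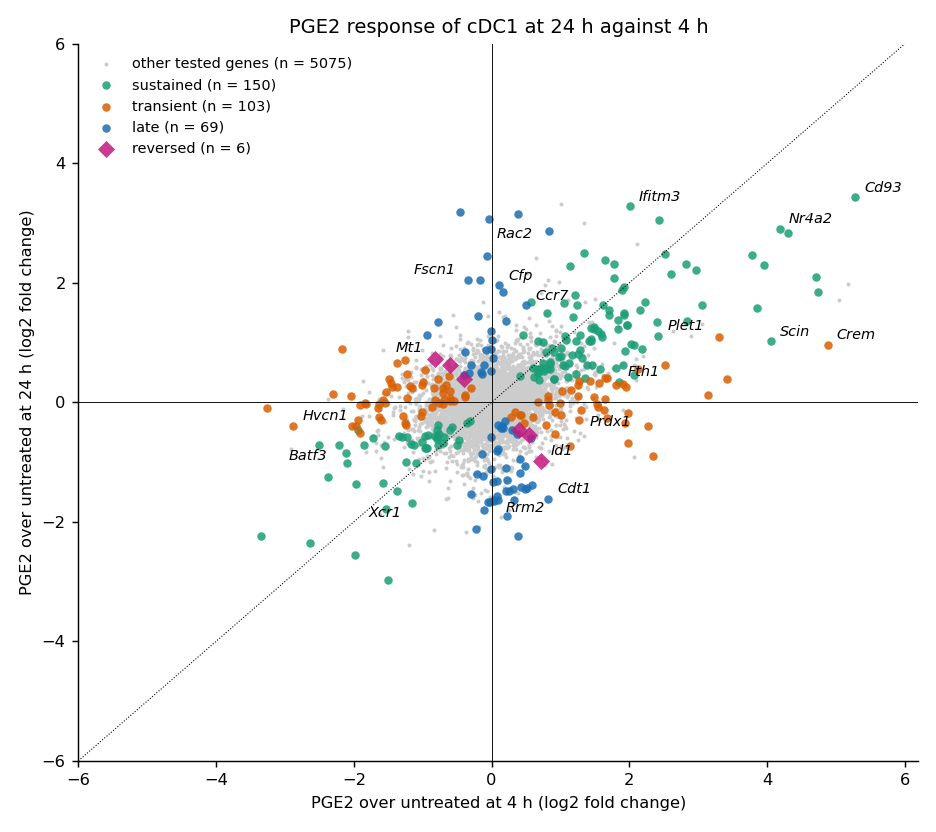
PGE2 effect at 4 h (horizontal, log2) against PGE2 effect at 24 h (vertical, log2) for the tested genes, colored by class; 1 gene lies outside the axes. Transient genes spread along the horizontal axis, late genes along the vertical axis, and the 150 sustained genes lie near the diagonal or to 1 side of it.

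Genes of peroxide and thiol defense, glutathione synthesis and iron storage were among the transient increases. Prdx1, Txnrd1, Srxn1, Gclm, Blvrb and the ferritin gene Ftl1 rose in PGE2-treated cells at 4 h and not at 24 h. Of the 20 tested members of the redox and ferritin list, 8 rose and 1 fell at 4 h, 2 rose and 1 fell at 24 h, and the difference was called lower for 8 and higher for 2. Their median log2 value was 0.71 at 4 h, -0.16 at 24 h and -0.72 for the difference. The 2 higher differences fell to 0 under some alternatives, and the 8 lower ones ranged from 6 to 9.

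Many genes of this kind are known targets of NRF2, which binds antioxidant response elements, here TGACNNNGC on either strand. The following promoter stretches of Prdx1, at chr4:116685440-116685499, and of a start of Txnrd1, at chr10:82859088-82859147, are shown because these genes carry the transient rise; both run along the plus strand of GRCm38.p6 from RefSeq. Capitals mark the match, which begins 133 bases before the start of Prdx1 and 92 before that start of Txnrd1.
Prdx1: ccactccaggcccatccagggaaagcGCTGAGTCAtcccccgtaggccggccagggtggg
Txnrd1: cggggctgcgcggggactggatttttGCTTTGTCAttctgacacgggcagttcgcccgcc
The letters occur within the 250 bases before a start for 3112 of 27025 genes of the promoter table (11.5%), and Gclm also holds them. So do named genes of other courses. Among them are the late increase Cfp, the late decreases Rrm2 and Pcna, the transient decrease Pmvk, and Irf8 and Naaa, which fell at both times. The promoters of Srxn1, Nqo1, Blvrb, Ftl1, Pgd and Fth1 held none, nor did the 2 other starts of Txnrd1. A match is a description of the letters, and this motif was added after the values were seen.

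Prdx1, a peroxiredoxin that reduces hydrogen peroxide (chromosome 4, 116685544 to 116700822, plus strand, GRCm38), had at 4 h 1778, 1713, 1956 and 1830 CPM in PGE2-treated cells, against 511.5, 709.3, 793.6 and 803.8 CPM in untreated cells. At 24 h it had 622.8, 663.2, 671.5 and 799.4 CPM in PGE2-treated cells, against 703, 714, 756.8 and 800.9 CPM in untreated cells. All PGE2-treated libraries were above all untreated ones at 4 h, and the groups overlapped at 24 h. The log2 effect was 1.30 ± 0.11 at 4 h (adjusted p = 9.92e-22) and -0.12 ± 0.11 at 24 h (adjusted p = 0.631). Here and below, ± on a log2 value is an approximate SE. It is the absolute log2 value over the square root of the test's F statistic, and is rough for genes with few counts. The difference was -1.42 ± 0.16 (adjusted p = 2.21e-13).

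Txnrd1, the reductase that recharges thioredoxin, had at 4 h 372.3, 297.3, 372.3 and 235.2 CPM in PGE2-treated cells, against 201, 102.5, 135.7 and 143.3 CPM in untreated cells. Its 24 h values were 86.13, 101.8, 119.8 and 102 CPM in PGE2-treated cells, against 145.7, 156.8, 88.07 and 107.8 CPM in untreated cells. It followed the course of Prdx1, apart at 4 h and overlapping at 24 h, with a difference of -1.56 ± 0.30 (adjusted p = 5.53e-05).

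Blvrb, a biliverdin and flavin reductase, averaged 334.8 against 81.62 CPM in PGE2-treated and untreated cells at 4 h and 73.87 against 121.8 CPM at 24 h. Its difference was -2.66 ± 0.32 (adjusted p = 2.66e-11); at 24 h its effect of -0.69 ± 0.24 was just short of a call (adjusted p = 0.0536) and passed as a decrease without any of 5 single libraries, among them the shallowest. Gclm, the modifier subunit of the enzyme that starts glutathione synthesis, averaged 673.7 against 343.2 CPM at 4 h and 123.7 against 137.2 CPM at 24 h, with a difference of -1.09 ± 0.24 (adjusted p = 0.00103; adjusted p = 0.21 when all 52 libraries were fitted together). Srxn1, the sulfiredoxin that repairs overoxidized peroxiredoxins, averaged 79.31 against 12.76 CPM at 4 h and 5.026 against 10.78 CPM at 24 h. Its difference of -3.25 ± 0.91 (adjusted p = 0.0185) was lost without replicate B of PGE2-treated cells at 4 h (adjusted p = 0.0663) or replicate C of untreated cells at 24 h (adjusted p = 0.125). Ftl1, the ferritin light chain, had a difference of -1.76 ± 0.39 (adjusted p = 0.000873), and Ftl1-ps1, a near-identical copy that can share its reads, -1.94 ± 0.38. Abcc1, an exporter of glutathione conjugates, rose at 4 h (1.54 ± 0.31) with a difference of -1.57 ± 0.42 (adjusted p = 0.0113). Nqo1, a quinone reductase often read as an NRF2 target, rose at 4 h (2.07 ± 0.46, adjusted p = 0.000277), and its difference of -2.98 ± 1.00 was not called (adjusted p = 0.0684).

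Fth1, the ferritin heavy chain that oxidizes and stores iron (chromosome 19, 9980598 to 9985098, plus strand), is by class a sustained gene that shrank. At 4 h it had 47980, 44870, 43680 and 48370 CPM in PGE2-treated cells, against 12390, 12270, 12840 and 13710 CPM in untreated cells. By 24 h the values were 14150, 14890, 14340 and 16440 CPM in PGE2-treated cells, against 11130, 11320, 11520 and 12980 CPM in untreated cells. The groups stood apart at both times, by far more at 4 h. Its effect was 1.85 ± 0.08 at 4 h (adjusted p = 3.68e-51) and 0.35 ± 0.08 at 24 h (adjusted p = 0.000694; adjusted p = 0.311 in the fit of all 52 libraries), a difference of -1.50 ± 0.11 (adjusted p = 5.28e-25). The summed level of the redox and ferritin list was 52030 to 56930 CPM with PGE2 and 17720 to 20520 CPM without at 4 h, and 19490 to 22250 CPM with PGE2 and 17140 to 18850 CPM without at 24 h.

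The rest of the list moved otherwise. Gpx1, a selenium-dependent glutathione peroxidase, fell at 4 h (-0.55 ± 0.10) and not at 24 h, with a difference of 0.57 ± 0.14 (adjusted p = 0.00538). Prdx5, a mitochondrial and peroxisomal peroxiredoxin, rose at 24 h alone (0.89 ± 0.17), with a difference of 0.97 ± 0.27 (adjusted p = 0.0185). In fits that each left out 1 library, the difference was lost for Gpx1 without replicate C of PGE2-treated cells at 4 h (adjusted p = 0.0603), for Prdx5 in 4 of the 16 such fits (adjusted p up to 0.307, without replicate C of untreated cells at 4 h) and for Abcc1 without replicate C of PGE2-treated cells at 4 h (adjusted p = 0.053). Thioredoxin, Txn1, is described with the genes that changed direction. Hmox1, Gsr and Cat were called at neither time, at 0.96 ± 0.44, 1.09 ± 0.41 and 0.49 ± 0.22 at 4 h.

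Crem and Nfil3 were the cyclic AMP and CREB targets with a called difference. Of 28 listed cyclic AMP and CREB targets 9 passed the filter on low counts; 7 rose and 2 fell at 4 h, 2 rose at 24 h, and the difference was called lower for 2. Without the shallowest library 1 of the 9 was lower at 4 h. Their median log2 value was 2.07 at 4 h, 0.96 at 24 h and -1.28 for the difference. Most members passed the filter through the groups in which they were high, so the counts and medians describe only those that passed and support nothing about the list.

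Crem, whose short form ICER represses CREB targets, had at 4 h 211.2, 244.1, 213.2 and 143.8 CPM in PGE2-treated cells, against 18.27, 0, 10.17 and 6.231 CPM in untreated cells. The 24 h libraries held 39.75, 32.83, 39.92 and 34.02 CPM in PGE2-treated cells, against 19, 20.02, 16.31 and 19.25 CPM in untreated cells. The groups did not overlap at either time. The effect was 4.88 ± 0.41 at 4 h (adjusted p = 9.32e-22) and 0.96 ± 0.41 at 24 h (adjusted p = 0.147), and the difference -3.92 ± 0.67 (adjusted p = 5.07e-06). Nfil3, a bZIP transcription factor needed for cDC1 development, averaged 114 against 16.54 CPM at 4 h and 36.82 against 17.17 CPM at 24 h, and its difference of -2.21 ± 0.68 was close to the threshold (adjusted p = 0.0373); leaving out 1 library, it was lost for Nfil3 in 7 of the 16 such fits (adjusted p up to 0.493, without replicate A of untreated cells at 24 h). Pde4b, a phosphodiesterase that degrades cyclic AMP, did not follow: it rose at both times, by 2.82 ± 0.31 at 4 h and 2.31 ± 0.29 at 24 h, and the difference of -0.51 ± 0.47 was not called (adjusted p = 0.692). Nr4a2, an orphan nuclear receptor, was likewise higher at both times, at 66.61 against 2.475 CPM and 15.54 against 1.754 CPM, with 3 and 2 counts in all in untreated cells. Its difference of -1.28 ± 1.81 (adjusted p = 0.835) is too wide to tell a lasting from a shrinking effect. In PGE2-treated cells alone it was lower at 24 h than at 4 h (-2.04 ± 0.49, adjusted p = 0.000878). With 1 library left out, its call at 24 h was lost in 3 of the 16 such fits (adjusted p up to 0.102, without replicate A of PGE2-treated cells at 24 h). Fos, Dusp1 and Pde3b rose at 4 h alone, by 1.91 ± 0.50, 1.78 ± 0.50 and 2.07 ± 0.46, with no called difference; the rise was lost for Dusp1 without replicate D of PGE2-treated cells at 4 h (adjusted p = 0.072).

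**Figure D2:**
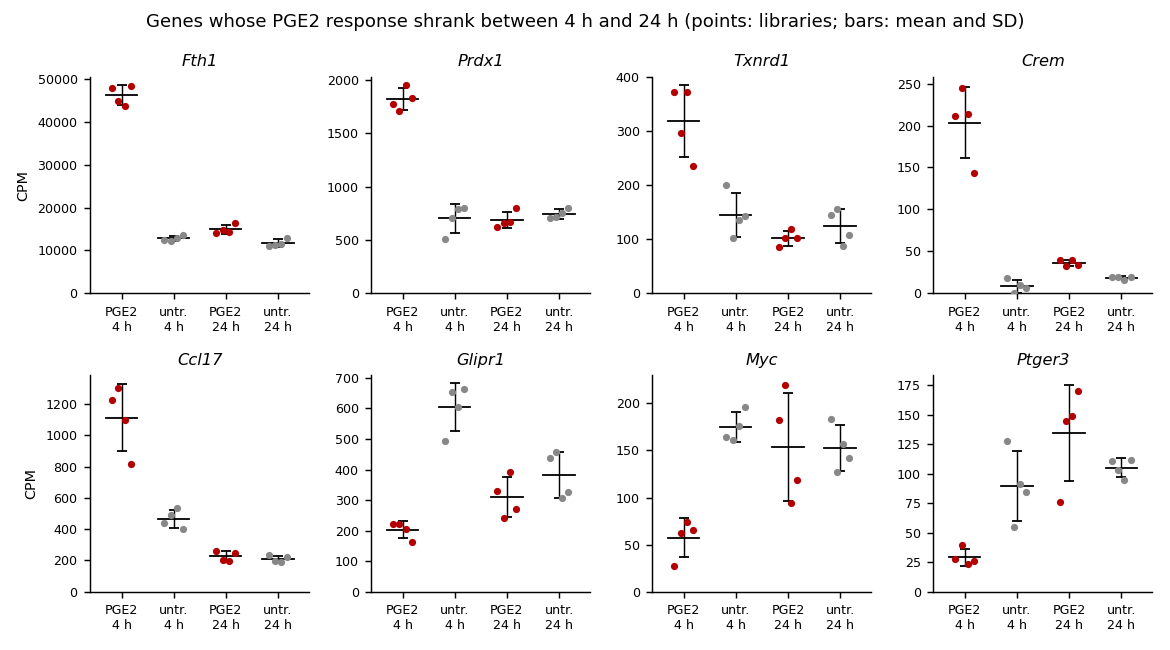
CPM (vertical, linear axis from 0) of 8 genes with an effect at 4 h that shrank or ended by 24 h, 1 point per library, with lines for the mean and SD (n = 4), PGE2-treated left of untreated at 4 h and then at 24 h. At 4 h the PGE2-treated libraries lie above the untreated ones for Fth1, Prdx1, Txnrd1, Crem and Ccl17 and below them for Glipr1, Myc and Ptger3; at 24 h the groups overlap for all but Fth1 and Crem.

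Chemokine, survival and signaling genes were among the other transient rises. Ccl17, a ligand of CCR4 that draws T cells, had at 4 h 1228, 1305, 1097 and 816.8 CPM in PGE2-treated cells, against 438.5, 488.7, 532.5 and 401.9 CPM in untreated cells. After 24 h there were 261.7, 203.6, 196 and 249.5 CPM in PGE2-treated cells, against 234.3, 196.8, 192.5 and 219.5 CPM in untreated cells. The difference was -1.15 ± 0.20 (adjusted p = 1.26e-05), and untreated cells themselves held less of it at 24 h than at 4 h (-1.15 ± 0.15, adjusted p = 2.47e-10). Esd, an esterase that hydrolyzes S-formylglutathione, rose by 1.64 ± 0.15 at 4 h with a difference of -1.58 ± 0.22. Fkbp1a, the FK506-binding protein, rose by 1.16 ± 0.11 with a difference of -0.95 ± 0.16. Cd9, a tetraspanin, rose by 0.83 ± 0.12, with a difference of -0.87 ± 0.16 (adjusted p = 5.13e-05). Weaker members of the class were the cytokine signal inhibitor Cish (-1.22 ± 0.35, adjusted p = 0.0191), the survival gene Bcl2a1d (-2.16 ± 0.56, adjusted p = 0.00753), the checkpoint receptor Havcr2 (-1.17 ± 0.31, adjusted p = 0.0101) and the NF-kB inhibitor Nfkbie (-1.57 ± 0.46, adjusted p = 0.0281). The Bcl2a1 copies share sequence, so their reads may be split between them. Leaving out 1 library, the difference was lost for Bcl2a1d without replicate B of untreated cells at 24 h (adjusted p = 0.0668), for Cish in 4 of the 16 such fits (adjusted p up to 0.0639, without replicate B of untreated cells at 24 h) and for Nfkbie in 4 of the 16 such fits (adjusted p up to 0.136, without replicate C of untreated cells at 24 h), and the rise at 4 h for Havcr2 in 2 of the 16 such fits (adjusted p up to 0.07, without replicate D of untreated cells at 4 h). Sdcbp2, which encodes a syntenin, averaged 80.95 against 0 CPM at 4 h and 1.656 against 2.57 CPM at 24 h, with no count in untreated cells at 4 h.

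Transient decreases at 4 h took in transcription factors, surface receptors and enzymes. Glipr1, a secreted or membrane protein of the CAP family, had at 4 h 222.3, 221.9, 206.5 and 163.4 CPM in PGE2-treated cells, against 493.3, 654.2, 603.7 and 663.6 CPM in untreated cells. At 24 h it had 331.3, 242.9, 392 and 272.1 CPM in PGE2-treated cells, against 437, 457.1, 306.6 and 327.3 CPM in untreated cells. The untreated libraries were all higher at 4 h and overlapped the treated ones at 24 h, and the difference was 1.30 ± 0.21 (adjusted p = 1.74e-06). Coro2a, a coronin, averaged 84.6 against 299.8 CPM at 4 h and 119.4 against 119.7 CPM at 24 h (1.83 ± 0.31, adjusted p = 5.64e-06). Akr7a5, an aldehyde reductase, averaged 50 against 137.9 CPM at 4 h and 251.4 against 208 CPM at 24 h (1.71 ± 0.33, adjusted p = 9.29e-05).

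Myc, the growth-promoting transcription factor, had at 4 h 27.78, 62.12, 74.46 and 65.34 CPM in PGE2-treated cells, against 164.4, 161.6, 176.4 and 196.3 CPM in untreated cells. Its 24 h values were 182.2, 220, 94.37 and 119.1 CPM in PGE2-treated cells, against 183.7, 126.8, 156.6 and 142.5 CPM in untreated cells. It was lower in every PGE2-treated library at 4 h and overlapped at 24 h, with a difference of 1.62 ± 0.33 (adjusted p = 0.000286). Myd88, the adaptor of most Toll-like receptors, fell at 4 h (-1.01 ± 0.19), although its groups overlapped there, and its difference was 1.30 ± 0.26 (adjusted p = 0.000141). Cd37, a tetraspanin of immune cells, averaged 23.61 against 99.74 CPM at 4 h and 85.06 against 78.21 CPM at 24 h (2.15 ± 0.46, adjusted p = 0.00056). Batf, a bZIP partner of IRF factors, averaged 6.069 against 29.76 CPM at 4 h and 45.92 against 24.98 CPM at 24 h; its difference of 3.07 ± 0.80 was called (adjusted p = 0.00918), and its fall at 4 h was lost in 6 alternatives, with adjusted p up to 0.0832 without replicate C of untreated cells at 4 h. Other members were the voltage-gated proton channel gene Hvcn1 (2.49 ± 0.63), the phosphatase gene Ptpn6 (0.80 ± 0.18) and the checkpoint ligand gene Vsir (1.29 ± 0.36, adjusted p = 0.0193), whose call, leaving out 1 library, was lost for Vsir in 2 of the 16 such fits (adjusted p up to 0.0659, without replicate B of PGE2-treated cells at 4 h).

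Within the prostaglandin list, 9 of 24 genes passed the filter and were tested. Of these 9, 2 fell at 4 h, 1 rose at 24 h, and the difference was called higher for 2. Their median log2 value was -0.19 at 4 h, -0.07 at 24 h and 0.33 for the difference. Ptger3, the EP3 receptor (chromosome 3, 157566892 to 157645888, plus strand), had at 4 h 27.78, 39.94, 23.69 and 26.14 CPM in PGE2-treated cells, against 127.9, 55.17, 91.57 and 84.12 CPM in untreated cells. By 24 h the values were 76.19, 144.5, 148.8 and 170.1 CPM in PGE2-treated cells, against 110.8, 103.4, 94.6 and 111.7 CPM in untreated cells. The groups were apart at 4 h and overlapped at 24 h, and the difference was 1.79 ± 0.42 (adjusted p = 0.00217). Hpgds, which makes prostaglandin D2, averaged 60.98 against 190.9 CPM at 4 h and 213 against 250.4 CPM at 24 h (1.39 ± 0.31, adjusted p = 0.000921). The receptor genes Ptger2 (EP2) and Ptger4 (EP4) were too low to test: Ptger2 averaged 36.41 against 26.56 CPM at 4 h and 15.82 against 12.91 CPM at 24 h, and Ptger4 7.502 against 42.47 CPM at 4 h and 17 against 15.35 CPM at 24 h. In the list of 19 cholesterol and fatty acid synthesis genes, 3 fell at 4 h, none was called at 24 h, and the difference was called higher for 3, of which DESeq2 called none. Fdps, which makes farnesyl diphosphate, and Pmvk, the phosphomevalonate kinase gene, were among them, with differences of 1.55 ± 0.45 (adjusted p = 0.0242) and 0.86 ± 0.27 (adjusted p = 0.0462). Leaving out 1 library, these were lost for Fdps in 4 of the 16 such fits (adjusted p up to 0.102, without replicate C of PGE2-treated cells at 4 h) and for Pmvk in 13 of the 16 such fits (adjusted p up to 0.182, without replicate B of PGE2-treated cells at 4 h).

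Late increases included Cfp, Rac2, Fscn1, Ccr7 and Capg, called higher at 24 h and not called at 4 h. Of the 27 late increases, 3 were on the migration and actin list and 3 on the maturation list, with Fscn1 and Ccr7 on both. Of all 5403 tested genes, 33 and 17 were on these lists, and 0.500% were late increases. In the list of 33 tested migration and actin genes, 3 rose and 7 fell at 4 h, 6 rose and 4 fell at 24 h, and the difference was called higher for 4 and lower for 2; the medians were -0.01, 0.03 and 0.12. The 4 higher differences ranged from 2 to 8 over the alternatives, with 8 under library totals. Fscn1, the actin-bundling protein fascin that marks migrating mature dendritic cells, carries a whole cyclic AMP response element, TGACGTCA, 45 bases before its RefSeq start, shown in capitals within chr5:142960284-142960343 of GRCm38.p6, plus strand.
Fscn1: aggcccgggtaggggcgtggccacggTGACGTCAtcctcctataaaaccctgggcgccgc
These letters, which read the same on both strands, occur within the 250 bases before a start of 478 of the 27025 genes (1.77%). The stretch is shown because Fscn1 is a late increase described in detail. The same letters are near a start of Pak1, a sustained decrease, and of Dusp1 and H2-Aa, and are in no promoter searched for Nr4a2, Pde4b, Nfil3 or Fos. Promoters were found for 77.5% of the tested genes, under the 80% set as the least for comparing classes, so the classes' shares are void and are not given.

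Fscn1 (chromosome 5, 142960343 to 142973185, plus strand) had at 4 h 55.57, 26.62, 23.69 and 26.14 CPM in PGE2-treated cells, against 73.08, 35.47, 37.31 and 40.5 CPM in untreated cells. The 24 h libraries held 331.3, 252.8, 254.1 and 158.7 CPM in PGE2-treated cells, against 53.83, 40.04, 71.76 and 80.86 CPM in untreated cells. The groups overlapped at 4 h, where replicate A was highest in both, and stood apart at 24 h. The difference was 2.39 ± 0.46 (adjusted p = 9.09e-05). Ccr7, the receptor that guides dendritic cells to lymph nodes, had at 4 h 238.9, 244.1, 132 and 176.4 CPM in PGE2-treated cells, against 274, 134, 115.3 and 127.7 CPM in untreated cells. After 24 h there were 487, 371, 424.6 and 362.8 CPM in PGE2-treated cells, against 129.8, 103.4, 127.2 and 181 CPM in untreated cells. All PGE2-treated libraries were above the untreated ones at 24 h alone, where the effect was 1.62 ± 0.17 (adjusted p = 5.89e-15). The effect at 4 h of 0.50 ± 0.21 missed the threshold (adjusted p = 0.122) but passed it without replicate A of untreated cells (adjusted p = 0.0289) or without replicate C of PGE2-treated cells (adjusted p = 0.0224). The difference was 1.12 ± 0.27 (adjusted p = 0.00409; adjusted p = 0.078 in the fit of all 52 libraries).

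Rac2, a small GTPase of blood cells, had at 4 h 88.91, 150.9, 77.85 and 98.02 CPM in PGE2-treated cells, against 127.9, 102.5, 81.39 and 127.7 CPM in untreated cells. At 24 h it had 225.3, 216.7, 134.3 and 209.8 CPM in PGE2-treated cells, against 38, 16.68, 16.31 and 19.25 CPM in untreated cells. The groups overlapped at 4 h and were well apart at 24 h, with replicate C the lowest treated and replicate A the highest untreated library. The difference was 3.12 ± 0.40 (adjusted p = 2.48e-10), and untreated cells held less at 24 h than at 4 h (-2.20 ± 0.32, adjusted p = 4.75e-08). Ncf1, which like Rac2 serves the phagocyte NADPH oxidase, averaged 326.2 against 335.4 CPM at 4 h and 416.3 against 222.5 CPM at 24 h (0.90 ± 0.21, adjusted p = 0.00254). Capg, an actin-capping protein, averaged 87.74 against 38.56 CPM at 4 h, where it was not called although its groups did not overlap, and 155.2 against 20.52 CPM at 24 h (2.03 ± 0.48, adjusted p = 0.00296).

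Cfp encodes properdin, which stabilizes the alternative complement convertase (chromosome X, 20925454 to 20931555, minus strand). At 4 h it had 516.8, 514.7, 453.5 and 509.7 CPM in PGE2-treated cells, against 255.8, 516.2, 430.7 and 501.6 CPM in untreated cells. Its 24 h values were 957.3, 1097, 871.1 and 1049 CPM in PGE2-treated cells, against 272.3, 280.3, 228.3 and 234.9 CPM in untreated cells. The groups overlapped at 4 h and did not at 24 h, and the difference was 1.85 ± 0.19 (adjusted p = 1.87e-15). Further late increases were the signaling adaptor gene Ostf1 (1.04 ± 0.18), the iron carrier gene Trf (1.20 ± 0.25), the aspartic protease gene Napsa (0.73 ± 0.16), the cyclin gene Ccnd2 (1.14 ± 0.26), S100a6 (0.73 ± 0.16) and the DAP12 adaptor gene Tyrobp (0.62 ± 0.14). Between 4 h and 24 h Ostf1 hardly moved in PGE2-treated cells (589.1 and 624.4 CPM) and fell in untreated cells (587.8 and 304.2 CPM). Trf and Napsa rose in PGE2-treated cells (0.69 ± 0.17 and 0.84 ± 0.11). Il4i1, an amino acid oxidase of mature dendritic cells, averaged 127.3 against 35.73 CPM at 24 h, with a weakly called difference of 1.69 ± 0.52 (adjusted p = 0.0389). Apol7c, an apolipoprotein L gene of cDC1, averaged 66.69 against 11.88 CPM at 24 h with a difference of 2.51 ± 0.77 (adjusted p = 0.0363). With 1 library left out, the difference was lost for Il4i1 in 10 of the 16 such fits (adjusted p up to 0.318, without replicate C of untreated cells at 4 h) and for Apol7c in 9 of the 16 such fits (adjusted p up to 0.16, without replicate C of untreated cells at 4 h).

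Markers of other cells moved beside these increases at 24 h. The macrophage and monocyte list summed to 1072 to 1345 CPM with PGE2 and 1060 to 1682 CPM without at 4 h, and to 2058 to 2457 CPM with PGE2 and 1402 to 1872 CPM without at 24 h. Of its 16 genes 4 were tested: Lyz2, the lysozyme gene, and Csf1r rose at 24 h, Ccr2 fell at both times and Cd68 fell at 4 h. Lyz2 had a called difference of 0.66 ± 0.16 (adjusted p = 0.00305). Adgre1, C1qa, Cd14 and Fcgr1 of the same list were at or near 0. The cDC2 list summed to 77.8 to 183 CPM with PGE2 and 77.99 to 130.1 CPM without at 4 h, and to 246.2 to 334.5 CPM with PGE2 and 126.8 to 182.6 CPM without at 24 h. Of its 12 genes 4 were tested; Cd7 and Itgam rose at 24 h, and Sirpa, Irf4 and Mgl2 were at or near 0. In fits without 1 library, the rise at 24 h was lost for Csf1r in 3 of the 16 such fits (adjusted p up to 0.075, without replicate B of PGE2-treated cells at 24 h). The part of such cells in the late increases was not tested. Of 12 plasmacytoid dendritic cell markers 1 was tested and not called, and no granulocyte or lymphocyte marker passed the filter.

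**Figure D3:**
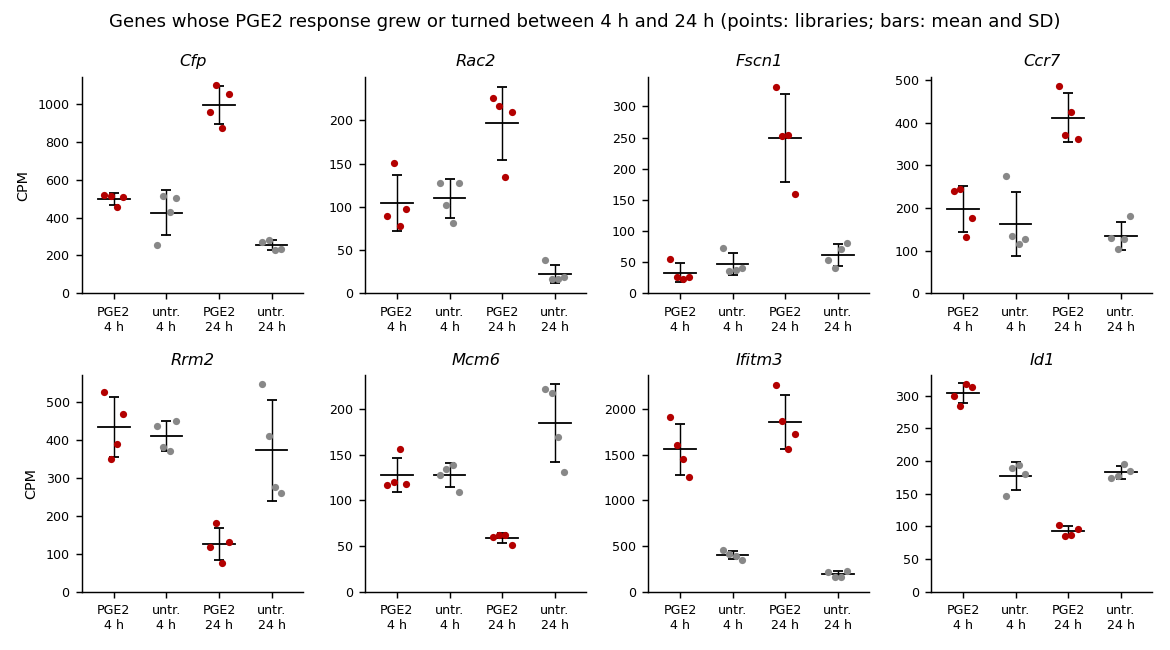
CPM (vertical, linear axis from 0) of 4 late increases (Cfp, Rac2, Fscn1, Ccr7), 2 late decreases (Rrm2, Mcm6), Ifitm3 and Id1, 1 point per library, with lines for the mean and SD (n = 4), PGE2-treated left of untreated at 4 h and then at 24 h. For the late genes the groups overlap at 4 h and separate at 24 h; Ifitm3 is apart at both times by more at 24 h, and Id1 changes side.

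Genes of DNA replication were among the late decreases, 9 of the 42 being on the proliferation list. Of all 5403 tested genes, 32 were on that list, and 0.777% were late decreases. Of 32 tested proliferation genes 2 rose and 1 fell at 4 h, none rose and 21 fell at 24 h, and the difference was called lower for 11 and higher for none. Their median log2 value was -0.12 at 4 h, -0.95 at 24 h and -0.93 for the difference. Their summed level was 5537 to 6090 CPM with PGE2 and 5627 to 6471 CPM without at 4 h, and 3136 to 3674 CPM with PGE2 and 5214 to 6435 CPM without at 24 h. In bulk RNA, fewer cycling cells and less of these transcripts per cell cannot be told apart.

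Rrm2, the ribonucleotide reductase subunit that limits deoxynucleotide supply (chromosome 12, 24708241 to 24714146, plus strand), had at 4 h 527.9, 350.6, 389.2 and 470.5 CPM in PGE2-treated cells, against 438.5, 382.3, 373.1 and 451.8 CPM in untreated cells. By 24 h the values were 119.3, 180.6, 76.22 and 130.4 CPM in PGE2-treated cells, against 547.8, 410.4, 277.3 and 261.8 CPM in untreated cells. All PGE2-treated libraries were below all untreated ones at 24 h alone, and the difference was -1.64 ± 0.27 (adjusted p = 2.15e-05). Mcm6, a subunit of the replicative helicase, had at 4 h 116.7, 119.8, 155.7 and 117.6 CPM in PGE2-treated cells, against 127.9, 134, 139 and 109 CPM in untreated cells. The 24 h libraries held 59.63, 62.38, 61.7 and 51.02 CPM in PGE2-treated cells, against 221.7, 216.9, 169.6 and 130.9 CPM in untreated cells. It separated at 24 h in the same way, with a difference of -1.67 ± 0.33 (adjusted p = 0.000143). Pcna, the sliding clamp of DNA polymerase, averaged 91.22 against 70.61 CPM at 4 h and 43.54 against 120.1 CPM at 24 h (-1.85 ± 0.41, adjusted p = 0.000869).

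The replication licensing factor gene Cdt1 averaged 81.63 against 39.6 CPM at 4 h, where it was not called although its groups did not overlap, and 19.82 against 63.76 CPM at 24 h, with a difference of -2.43 ± 0.51 (adjusted p = 0.000421). Its inhibitor geminin, Gmnn, had a difference of -1.52 ± 0.33, the checkpoint mediator Clspn -1.94 ± 0.37 and the PCNA-binding factor Pclaf -1.69 ± 0.33. Tyms, the thymidylate synthase gene, had -1.61 ± 0.43, the flap endonuclease gene Fen1 -1.68 ± 0.40 and the topoisomerase gene Top2a -0.73 ± 0.18. Genes of the later cell cycle were less uniform: Mki67, Ccna2 and Birc5 fell at 24 h, while Ccnb1, Ccnb2, Cdk1, Cdc20, Plk1 and Ube2c were not called at either time. Nusap1 and Cenpa, a spindle and a centromere gene, rose at 4 h and not at 24 h, with differences of -1.46 ± 0.47 (adjusted p = 0.0494) and -0.71 ± 0.18 (adjusted p = 0.0073). Id3, an inhibitor of bHLH factors, was also late and lower (-0.58 ± 0.18, adjusted p = 0.0418). Leaving out 1 library, the difference was lost for Nusap1 in 8 of the 16 such fits (adjusted p up to 0.185, without replicate B of PGE2-treated cells at 24 h) and for Id3 in 7 of the 16 such fits (adjusted p up to 0.134, without replicate D of PGE2-treated cells at 4 h). The groups of Nusap1 overlapped at 4 h, and its rise there was lost in 4 of the 16 such fits (adjusted p up to 0.218, without replicate B of untreated cells at 4 h).

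Among 10 tested D cyclin and cell cycle arrest genes, 4 rose and 2 fell at 4 h, 3 rose at 24 h, and the difference was called higher for 1 and lower for 1. Cdkn1a, the p21 inhibitor of cyclin-dependent kinases, averaged 1212 against 480.8 CPM at 4 h and 467.2 against 358.1 CPM at 24 h, with a difference of -0.95 ± 0.18 (adjusted p = 6.68e-05); its effect at 24 h of 0.41 ± 0.13 was lost in 8 alternatives, with adjusted p up to 0.274 without replicate B of PGE2-treated cells at 24 h. Btg1, an antiproliferative gene, rose by 1.67 ± 0.32 at 4 h alone.

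**Figure D4:**
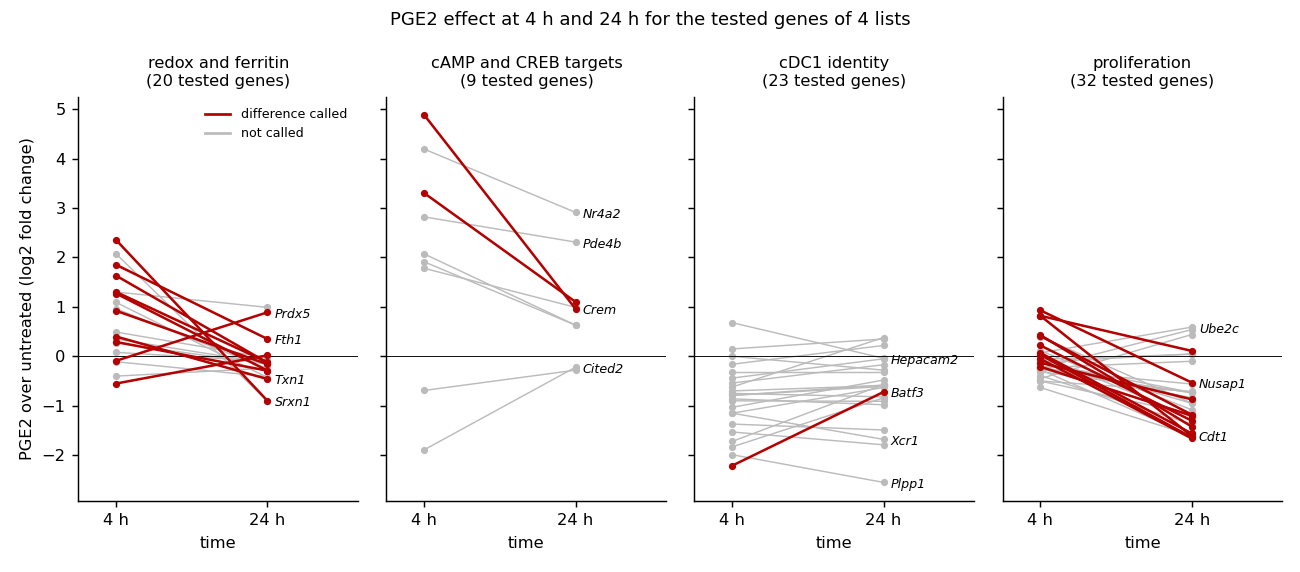
PGE2 effect (vertical, log2 fold change over untreated) at 4 h and 24 h (horizontal), with 1 line joining the 2 values of each tested member of 4 lists: redox and ferritin (20), cyclic AMP and CREB targets (9), cDC1 identity (23) and proliferation (32), in red where the difference was called. Most red lines of the redox and cyclic AMP lists run down toward 0, those of the proliferation genes run down below 0, and most cDC1 genes lie below 0 at both times, with 1 red line, Batf3.

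The sustained genes with a larger effect at 24 h were Ifitm3, Ifitm1, Ctss, S100a4 and the predicted gene Gm7676. Ifitm3, a membrane protein that blocks virus entry (chromosome 7, 141009586 to 141010770, minus strand), had at 4 h 1912, 1611, 1459 and 1255 CPM in PGE2-treated cells, against 456.7, 409.8, 386.6 and 352.1 CPM in untreated cells. After 24 h there were 2263, 1871, 1568 and 1729 CPM in PGE2-treated cells, against 215.3, 160.1, 163.1 and 227.2 CPM in untreated cells. The groups did not overlap at either time. Its effect was 2.00 ± 0.13 at 4 h and 3.28 ± 0.13 at 24 h, and the difference 1.28 ± 0.18 (adjusted p = 2.96e-08). Ifitm1, of the same family, averaged 6448 ± 205.3 against 2058 ± 145.7 CPM at 4 h and 7665 ± 351.9 against 1466 ± 28.16 CPM at 24 h (SD, n = 4 each), a difference of 0.74 ± 0.13 (adjusted p = 4.69e-06). Ifitm2 rose at both times, by 1.92 ± 0.12 and 1.94 ± 0.11, with no called difference (0.02 ± 0.17). These 3 genes resemble each other in sequence, so reads may be split between them. Interferon-stimulated genes in general did not move with them: of 18 tested, none rose at either time, 2 fell at 4 h, and no difference was called in edgeR's quasi-likelihood fit.

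Ctss, a protease that trims the class II invariant chain, rose by 0.46 ± 0.11 at 4 h and 1.12 ± 0.10 at 24 h (0.66 ± 0.15, adjusted p = 0.00124). S100a4, a calcium-binding protein, rose by 0.57 ± 0.19 at 4 h, a call lost in 7 alternatives (adjusted p = 0.0889 without replicate B of untreated cells at 4 h and 0.101 with library totals), and by 1.67 ± 0.17 at 24 h, with a difference of 1.10 ± 0.25 (adjusted p = 0.00178). Of 13 tested genes of MHC class II presentation, 5 rose and 2 fell at 4 h, 3 rose at 24 h, and the difference was called higher for 5; the medians were -0.16, 0.19 and 0.48. The 5 rises at 4 h, among them H2-Aa (0.30 ± 0.08) and Cd74 (0.30 ± 0.08), became 2 when libraries were scaled by their totals. The peptide-exchange genes H2-DMa and H2-DMb1 fell at 4 h alone, with differences of 0.48 ± 0.14 (adjusted p = 0.0328) and 0.63 ± 0.15 (adjusted p = 0.00305), although the groups of H2-DMb1 overlapped at both times, with replicate A of untreated cells low at 840.4 CPM at 4 h. The groups of H2-DMa overlapped at 4 h and did not at 24 h, where it was not called. Its fall at 4 h was lost in 3 of 16 fits without 1 library (adjusted p up to 0.147, without replicate D of untreated cells at 4 h). H2-DMb2 and H2-Oa rose at 24 h alone, with adjusted p of 0.0309 and 0.0257 for the difference. With 1 library left out, the difference was lost for H2-DMa in 13 of the 16 such fits (adjusted p up to 0.211, without replicate D of untreated cells at 4 h), for H2-DMb2 in 9 of the 16 such fits (adjusted p up to 0.119, without replicate C of untreated cells at 4 h) and for H2-Oa in 7 of the 16 such fits (adjusted p up to 0.14, without replicate C of untreated cells at 4 h), and the 5 higher differences ranged down to 2 over the alternatives.

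Sustained genes with a smaller effect at 24 h comprised 19 increases and 7 decreases. Plet1, a surface protein of migratory dendritic cells, had at 4 h 6512, 6159, 6566 and 6606 CPM in PGE2-treated cells, against 1571, 1009, 1048 and 1371 CPM in untreated cells. At 24 h it had 3528, 3858, 3049 and 4048 CPM in PGE2-treated cells, against 1682, 1511, 1713 and 1756 CPM in untreated cells. The groups were apart at both times, and the effect of 2.42 ± 0.10 at 4 h stood against 1.12 ± 0.09 at 24 h, a difference of -1.31 ± 0.14 (adjusted p = 1.52e-14). Csf2rb, the common beta chain of the GM-CSF, IL-3 and IL-5 receptors, averaged 2661 against 922.8 CPM at 4 h and 1569 against 1065 CPM at 24 h (-1.02 ± 0.14, adjusted p = 1.91e-08). Cd81, a tetraspanin, averaged 1588 against 464.8 CPM at 4 h and 284.2 against 191.9 CPM at 24 h (-1.22 ± 0.20, adjusted p = 9.09e-07). Gpr171, an orphan-like G protein-coupled receptor, averaged 669 against 192.4 CPM at 4 h and 418.8 against 269.5 CPM at 24 h (-1.29 ± 0.21, adjusted p = 1.74e-06). Cd83, a surface marker of mature dendritic cells, rose by 1.94 ± 0.21 at 4 h and 0.86 ± 0.19 at 24 h (-1.07 ± 0.29, adjusted p = 0.0135). Scin, an actin-severing protein, averaged 526.5 against 53.7 CPM at 4 h and 63.11 against 30.91 CPM at 24 h (-3.03 ± 0.47, adjusted p = 3.32e-07); its rise at 24 h was lost in 8 alternatives, with adjusted p of 0.166 without replicate A of untreated cells at 24 h and 0.371 in the fit of all 52 libraries. Ramp3, a receptor activity-modifying protein, had a difference of -1.66 ± 0.48 (adjusted p = 0.0235) that was lost in 6 alternatives, with adjusted p of 0.169 without replicate A of untreated cells at 24 h and 0.406 in the fit of all 52 libraries. The rise at 24 h was lost for Cd81 without replicate B of PGE2-treated cells at 24 h (adjusted p = 0.124).

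Among the 7 decreases was Batf3, the transcription factor that maintains IRF8 in cDC1 (chromosome 1, 191097847 to 191108945, plus strand). At 4 h it had 50.01, 84.31, 37.23 and 71.88 CPM in PGE2-treated cells, against 274, 283.7, 278.1 and 264.8 CPM in untreated cells. Its 24 h values were 165.6, 111.6, 101.6 and 96.38 CPM in PGE2-treated cells, against 186.8, 213.5, 261 and 130.9 CPM in untreated cells. The groups stood apart at 4 h and overlapped at 24 h, and the effect was -2.21 ± 0.24 at 4 h (adjusted p = 9.4e-15) and -0.72 ± 0.20 at 24 h (adjusted p = 0.00888; adjusted p = 0.113 without replicate C of untreated cells). The difference was 1.50 ± 0.32 (adjusted p = 0.00065). Serp1, a stress-associated protein of the endoplasmic reticulum, averaged 452.6 against 1964 CPM at 4 h and 604.9 against 1221 CPM at 24 h (1.08 ± 0.16, adjusted p = 5.15e-08). Pak1, a kinase activated by Rac, had a difference of 1.48 ± 0.23. In fits without 1 library, the decrease at 24 h was lost for Pak1 in 2 of the 16 such fits (adjusted p up to 0.0778, without replicate C of untreated cells at 24 h). Qpct, which forms pyroglutamate ends on proteins, had 1.12 ± 0.25.

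No other gene of the cDC1 identity list had a called difference. Of the 23 tested, 14 fell and 1 rose at 4 h, 10 fell at 24 h, and Batf3 alone had a called difference; the medians were -0.79, -0.59 and 0.18. DESeq2 called 9 of the decreases at 4 h. Their summed level was 8599 to 9795 CPM with PGE2 and 13740 to 14610 CPM without at 4 h, and 8585 to 8846 CPM with PGE2 and 13050 to 13350 CPM without at 24 h. Irf8, the lineage-defining factor of cDC1, had at 4 h 3228, 2764, 2843 and 3078 CPM in PGE2-treated cells, against 5061, 5021, 5053 and 5415 CPM in untreated cells. By 24 h the values were 2846, 2863, 2936 and 2761 CPM in PGE2-treated cells, against 4269, 4414, 4400 and 4363 CPM in untreated cells. The PGE2-treated libraries were lower at both times without overlap, and the difference of 0.18 ± 0.12 was not called (adjusted p = 0.537). Xcr1, the chemokine receptor that defines cDC1, had at 4 h 144.5, 115.4, 152.3 and 130.7 CPM in PGE2-treated cells, against 292.3, 271.9, 322.2 and 317.8 CPM in untreated cells. The 24 h libraries held 102.7, 91.93, 72.59 and 68.03 CPM in PGE2-treated cells, against 316.7, 266.9, 231.6 and 288.8 CPM in untreated cells. It was lower in all PGE2-treated libraries at both times, with effects of -1.15 ± 0.19 and -1.68 ± 0.19 and a difference of -0.53 ± 0.28 (adjusted p = 0.344). Naaa, a lysosomal amidase abundant in cDC1, fell at both times, with log2 effects of -1.37 ± 0.11 and -1.49 ± 0.11, and Ppt1, a lysosomal thioesterase, likewise, with -1.53 ± 0.14 and -1.79 ± 0.13, and neither had a called difference. Clec9a, the receptor for dead-cell actin, was called at neither time (-0.75 ± 0.36 and -0.82 ± 0.34).

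Sustained genes without a called difference were 80 increases and 39 decreases. Genes of natural killer cell receptors were among the genes higher with PGE2: Klrd1 averaged 82.26 against 15.31 CPM at 4 h and 100.2 against 11.84 CPM at 24 h, and Klrk1 and Klrb1b rose by 1.55 ± 0.36 and 1.02 ± 0.23 at 24 h. The lymphocyte marker list summed to 5.557 to 84.94 CPM with PGE2 and 0 to 3.116 CPM without at 4 h, and to 6.566 to 33.13 CPM with PGE2 and 0 to 3.262 CPM without at 24 h. Of its 12 genes 5 had a count, and most of the sum came from Il7r, the interleukin-7 receptor gene, with 19 and 13 counts in all in PGE2-treated cells at 4 h and 24 h and 0 in untreated cells at both times. Cd3e, Cd3d, Cd8b1 and Ms4a1 had 0 to 5 counts in all per group, and the part of lymphocytes in these increases was not tested. Socs2, a feedback inhibitor of cytokine signals, rose by 2.52 ± 0.58 at 4 h and 2.49 ± 0.51 at 24 h. Rnf125, a ubiquitin ligase gene, averaged 87.57 against 3.185 CPM at 4 h and 82.26 against 10.73 CPM at 24 h, and Sla2, an adaptor that dampens receptor signals, 82.12 against 7.958 CPM and 64.02 against 11.24 CPM. Cd93, a C-type lectin receptor, averaged 60.78 against 0.8478 CPM at 4 h and 21.95 against 1.797 CPM at 24 h, with 1 and 2 counts in all in untreated cells. Of 34 listed pattern recognition receptors 8 passed the filter on low counts, Cd93 through the PGE2-treated groups, so their counts support nothing about the list. Of these 8, 4 rose and 2 fell at 4 h, and 2 rose and 1 fell at 24 h. Clec7a, the beta-glucan receptor, had a lower difference (-2.90 ± 0.87, adjusted p = 0.0312). Leaving out 1 library, it was lost in 8 of the 16 such fits (adjusted p up to 0.13, without replicate D of untreated cells at 4 h). Ccr2, the monocyte-type chemokine receptor, averaged 30.87 against 83.88 CPM at 4 h and 6.537 against 55.67 CPM at 24 h and fell at both times, as did Cd180, Ramp1, Plpp1 and the T cell-binding receptor gene Slamf7. A missing call does not show equal effects: the difference was 0.62 ± 0.66 for Klrd1, 1.11 ± 0.72 for Cd180 and -1.47 ± 0.65 for Ccr2. Leaving out 1 library raised the effect at 4 h of Klrd1 to 3.33 (without replicate C of untreated cells) and of Rnf125 to 5.46 (without replicate D of untreated cells), and moved that of Cd180 to -4.41 (without replicate C of PGE2-treated cells). The decrease was lost for Plpp1 in 10 of the 16 such fits (adjusted p up to 0.186, without replicate C of untreated cells at 4 h) and, at 24 h, for Ramp1 in 3 of the 14 such fits (adjusted p up to 0.0855, without replicate A of PGE2-treated cells at 24 h).

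The NF-kB and maturation lists moved upward at both times, with more NF-kB genes called at 4 h and more maturation genes at 24 h. Of 16 tested NF-kB genes 10 rose at 4 h and 6 at 24 h, none fell, and the difference was called lower for Nfkbie; the medians were 1.07, 0.65 and -0.24. Relb, a subunit of the noncanonical pathway, rose by 1.54 ± 0.32 and 1.20 ± 0.26, Traf1 by 1.48 ± 0.29 and 1.23 ± 0.27, and Ier3 by 1.24 ± 0.22 and 1.63 ± 0.25. Il1b, the inflammatory cytokine gene, rose by 2.83 ± 0.36 at 4 h and 1.37 ± 0.37 at 24 h, a rise at 24 h that was lost without replicate C of PGE2-treated cells (adjusted p = 0.185). Of 17 tested maturation genes 7 rose at 4 h, 9 rose and 1 fell at 24 h, and the difference was called higher for Fscn1, Ccr7 and Il4i1 and lower for Cd83, Cish and Ccl17; the medians were 0.50, 0.74 and -0.02. Ccl22, the other CCR4 ligand, rose at both times (0.67 ± 0.20 and 1.03 ± 0.17) with no called difference, and its rise at 4 h was lost for Ccl22 in 4 of the 16 such fits (adjusted p up to 0.115, without replicate D of untreated cells at 4 h). Of 22 tested cytokine and growth factor receptors 8 rose at 4 h and 10 at 24 h, with lower differences for Csf2rb and its paralog Csf2rb2 (-0.69 ± 0.18), the second lost for Csf2rb2 without replicate C of untreated cells at 24 h (adjusted p = 0.055); the decoy receptor gene Il1r2 rose by 2.23 ± 0.16 and 1.67 ± 0.13. Of 19 tested S100, annexin and lectin genes 4 rose at 4 h and 10 at 24 h, and the difference was called higher for 4 and lower for 1; with library totals 3 rose and 4 fell at 4 h.

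The other lists held at most 3 called differences each, where the share over all tested genes was 4.35%. Those with a called difference lay above that share, on 6 to 26 tested members each. Of 33 listed cytokine and chemokine genes 10 passed the filter and were tested. Of these 10, 4 rose at 4 h and 3 at 24 h, with Ccl17 alone lower for the difference. Of 16 tested BCL2 family and apoptosis genes 5 rose at each time, with Bcl2a1d lower for the difference, and Mcl1 rose by 0.68 ± 0.15 and 0.49 ± 0.14 (the second lost for Mcl1 without replicate A of PGE2-treated cells at 24 h (adjusted p = 0.0531)). Of 11 tested AP-1 and ATF genes 3 rose and 2 fell at 4 h, 1 rose and 1 fell at 24 h, with Batf and Batf3 higher for the difference. Of 9 tested cytokine feedback genes 3 rose and 1 fell at 4 h, 1 rose and 1 fell at 24 h, with Ptpn6 higher and Cish lower for the difference. Of 10 tested genes of mature regulatory dendritic cells 5 rose and 1 fell at 4 h, 4 rose and 1 fell at 24 h, and the difference was higher for Vsir and Il4i1 and lower for Havcr2. Lysosomal genes fell more than they rose at 4 h (8 against 1 of 26) and were even at 24 h (4 and 4), with 3 higher for the difference, Hvcn1 and Ctss among them. Of 22 tested stress genes 1 rose and 3 fell at 4 h and 4 fell at 24 h, with Hspe1 higher for the difference, a call lost for Hspe1 in 2 of the 16 such fits (adjusted p up to 0.0993, without replicate C of PGE2-treated cells at 4 h). Of 18 tested MHC class I genes 1 fell at 4 h and 2 rose and 1 fell at 24 h, of 16 glycolysis genes 1 rose at each time and 1 fell at 24 h, and of 5 regulators of G protein signaling 2 fell at 4 h and 1 at 24 h, with no called difference in any of these lists; with library totals 5 MHC class I genes fell at 4 h and 3 had a higher difference. Of 6 mitochondrial transcripts mt-Nd1 alone was called, lower at 24 h (-0.51 ± 0.15 for the difference, adjusted p = 0.0327), a difference lost for mt-Nd1 in 5 of the 16 such fits (adjusted p up to 0.15, without replicate B of PGE2-treated cells at 24 h). Il12b, the p40 cytokine chain, was called at neither time (0.26 ± 0.31 and 0.17 ± 0.29), and Cxcl9, which did not pass the filter, averaged 34.33 against 29.92 CPM at 4 h and 18.5 against 36.79 CPM at 24 h.

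The 6 genes that changed direction had small effects at each time. Id1, an inhibitor of bHLH factors (chromosome 2, 152736251 to 152737410, plus strand), had at 4 h 300.1, 284, 318.2 and 313.7 CPM in PGE2-treated cells, against 146.2, 189.2, 193.3 and 180.7 CPM in untreated cells. After 24 h there were 102.7, 85.36, 87.11 and 96.38 CPM in PGE2-treated cells, against 174.2, 176.8, 195.7 and 184.8 CPM in untreated cells. The PGE2-treated libraries were all higher at 4 h and all lower at 24 h, and the difference was -1.70 ± 0.27 (adjusted p = 7.06e-07). Txn1, thioredoxin, averaged 1604 ± 63.3 against 1193 ± 116.4 CPM at 4 h and 829.9 ± 35.35 against 1145 ± 68 CPM at 24 h (SD, n = 4 each), again without overlap in either direction (-0.86 ± 0.15, adjusted p = 4.44e-06). Lmnb1, a nuclear lamin, rose by 0.54 ± 0.18 at 4 h and fell at 24 h (-0.55 ± 0.18), each call close to the threshold (adjusted p = 0.0414 and adjusted p = 0.0452); leaving out 1 library, the rise was lost for Lmnb1 in 4 of the 16 such fits (adjusted p up to 0.134, without replicate C of PGE2-treated cells at 4 h) and the fall for Lmnb1 in 5 of the 16 such fits (adjusted p up to 0.232, without replicate C of PGE2-treated cells at 24 h).

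Mt1, a metallothionein that binds zinc, went the other way. At 4 h it had 88.91, 115.4, 101.5 and 52.28 CPM in PGE2-treated cells, against 237.5, 149.7, 210.3 and 115.3 CPM in untreated cells. At 24 h it had 407.5, 371, 290.4 and 323.2 CPM in PGE2-treated cells, against 215.3, 206.9, 231.6 and 188.7 CPM in untreated cells. The groups overlapped at 4 h and stood apart at 24 h, and the difference was 1.55 ± 0.28 (adjusted p = 2.15e-05). Pycard, the inflammasome adaptor ASC, averaged 229.1 against 318 CPM at 4 h and 499.6 against 323.2 CPM at 24 h (1.24 ± 0.21, adjusted p = 5.64e-06). Itm2b, a membrane protein, averaged 643.1 against 819.1 CPM at 4 h and 1193 against 910.3 CPM at 24 h (0.79 ± 0.16, adjusted p = 0.000188). Leaving out 1 library, the decrease at 4 h was lost for Mt1 in 2 of the 16 such fits (adjusted p up to 0.161, without replicate C of untreated cells at 4 h), for Pycard without replicate D of untreated cells at 4 h (adjusted p = 0.0832) and for Itm2b in 3 of the 16 such fits (adjusted p up to 0.216, without replicate D of untreated cells at 4 h), and the rise at 24 h for Itm2b without replicate B of untreated cells at 24 h (adjusted p = 0.0637).

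A change in the PGE2 effect can come from the treated cells or from the untreated cells they are set against. The PGE2-treated cells moved more between 4 h and 24 h than the untreated ones in 39 of 48 transient increases, 42 of 55 transient decreases, 18 of 27 late increases and 38 of 42 late decreases. For transient increases the median log2 change between the times was -1.25 in PGE2-treated and 0.06 in untreated cells. For late increases it was 0.92 in PGE2-treated and -0.51 in untreated cells, and for late decreases -1.17 in PGE2-treated and 0.23 in untreated cells. The treated and untreated groups are those that chose the classes, so these values are a description.

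The classes were then read in libraries that had no part in defining them. In PGE2 with poly I:C against poly I:C at 24 h, 455 of 6490 genes were called (7.01%), 238 higher (3.67%) and 217 lower (3.34%). Transient increases were called higher there for 5 of 48 genes (10.4%) and lower for 7, with a median of -0.0592. Late increases were called higher for 14 of 27 (51.9%) and lower for 1, with a median of 0.557. Late decreases were called lower for 5 of 42 (11.9%), with a median of -0.368, and transient decreases for 4 of 55 (7.27%). Several late decreases were low in both poly I:C groups, and the part of this in the missing calls was not tested. With and without PGE2, Rrm2 averaged 26.2 and 35.53 CPM and Cdt1 3.576 and 15.76 CPM, neither called. Clspn, at 3.261 and 18.01 CPM, and Mcm6, at 27.31 and 61.27 CPM, were called lower. Prdx1 averaged 8497 and 8188 CPM there, far above its level without poly I:C. Sustained increases of like size were called higher for 33 of 80 (41.2%), and all 5 with a larger effect at 24 h were called higher. Increases with a smaller effect at 24 h were called higher for 8 of 19 (42.1%), decreases of like size lower for 11 of 39 (28.2%), and decreases with a smaller effect at 24 h lower for 0 of 7.

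In control against Ptgs-deficient melanoma medium at 4 h, 240 of 6490 genes were called (3.70%), 147 higher (2.27%) and 93 lower (1.43%). Replicate B of the Ptgs-deficient medium stood apart, toward the control medium: Crem had 101.1 CPM in it, against 8.935, 4.17 and 30.89 CPM in replicates A, C and D, and Fth1 25730 CPM, against 9355, 11580 and 11350 CPM. Transient increases were called higher there for 24 of 48, with a median of 0.715, and transient decreases lower for 19 of 55 (34.5%), with a median of -0.462. Late increases were called higher for 1 of 27 (3.70%), against a background of 2.27%, and late decreases lower for 0 of 42, against a background of 1.43%. All 19 sustained increases and all 7 sustained decreases with a smaller effect at 24 h were called in their own direction. Sustained genes of like size were called in their own direction for 44 of 80 increases and 23 of 39 decreases. Without replicate B of the Ptgs-deficient medium, an alternative chosen after its values were seen, 204 genes were called higher and 121 lower of 6799. Transient increases were then called higher for 31 of 48 and transient decreases lower for 22 of 55, late increases higher for 1 of 27 and late decreases lower for 0 of 42. Crem stood at 3.49 ± 0.36 and Fth1 at 1.42 ± 0.11 without it, while Prdx1 (0.17 ± 0.15), Rac2 (0.04 ± 0.27), Rrm2 (-0.15 ± 0.16) and Fscn1 (0.23 ± 0.33) were again not called. Among single genes with all libraries, Crem had a log2 value of 2.17 ± 0.34 in this comparison and 0.07 ± 0.39 with poly I:C at 24 h, and Rac2 -0.01 ± 0.24 and 1.95 ± 0.49. Prdx1, a transient increase, stood at -0.03 ± 0.16 with the melanoma media and was not called (adjusted p = 0.97), while Fth1 stood at 0.98 ± 0.17 (adjusted p = 0.000109). Rrm2 and Fscn1, late genes, stood at -0.04 ± 0.16 and 0.51 ± 0.32 with the media and at -0.54 ± 0.45 and 1.11 ± 0.13 with poly I:C. The medium holds whatever else melanoma cells release, and its PGE2 level is not in the labels.

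**Figure D5:**
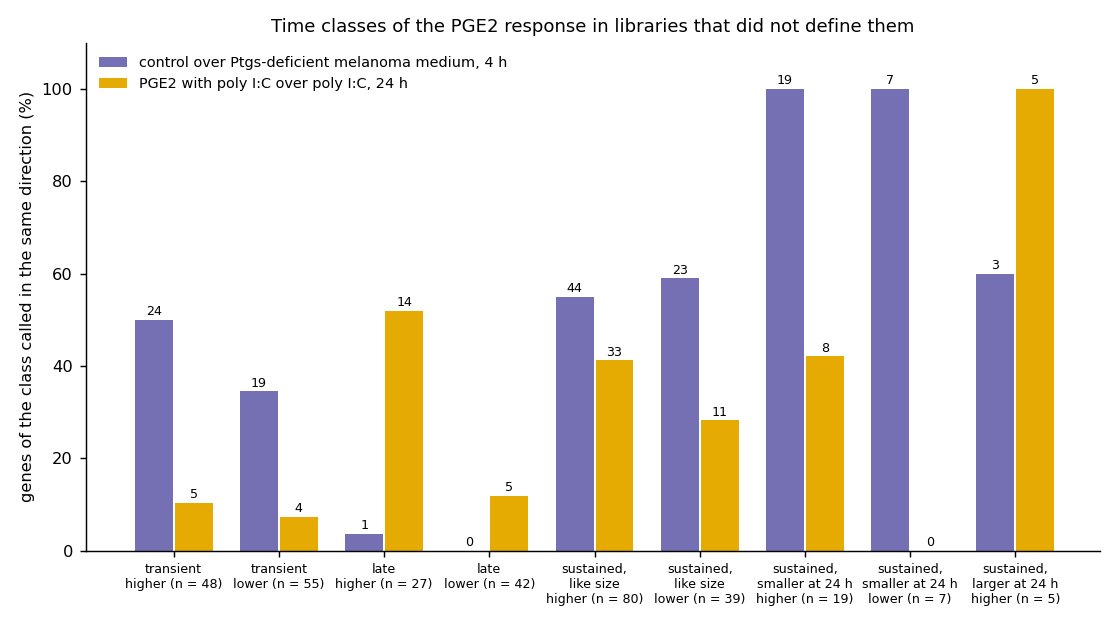
Share (%) of each class called in its own direction in 2 comparisons of other libraries, control against Ptgs-deficient melanoma medium at 4 h and PGE2 with poly I:C against poly I:C at 24 h. Transient increases reach 24 of 48 with the media at 4 h and 5 of 48 with poly I:C at 24 h, and late increases 1 of 27 with the media and 14 of 27 with poly I:C.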

How the data were processed

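Per the labels' protocols, poly(A) RNA of sorted CD103+ cells was read as 3′ ends with UMIs on a NextSeq 500 and processed with the Drop-seq pipeline against GRCm38 and Ensembl gene models; the submitters' processing notes name DESeq2 1.14.1 and GRCm38.p6. Neither aligner nor strand setting is named there, so overlapping and antisense genes cannot be told apart by their reads. The authors deposited raw UMI counts per gene in 1 table, with 0 columns of no sample. Of 23136 lines, 1 held a text entry and was left out. The 20 lines with a symbol turned into a date (0.105% of counts) name no gene. They stayed in the fits, where they could be tested and counted in the classes, and were kept from being named. Depth per library is given in ranges above.

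The 16 libraries of the 4 groups were fitted with edgeR 4.0.16 in R 4.3.3 (1 mean per group, TMM scaling, filterByExpr by group, robust quasi-likelihood F test, Benjamini-Hochberg over 5403 genes). Contrasts were PGE2 minus untreated at 4 h, at 24 h, and the second minus the first; a positive value means higher with PGE2, or a higher effect at 24 h. Other libraries were tested in 1 fit of all 52 (6490 genes). CPM are relative to the counts of tested genes times the TMM factor; SDs are over 4 libraries. The fit was tested on simulated data with known folds. Genes named are up to 6 per class and direction, by smallest p of the difference (for sustained genes without one, by the largest smaller effect of the 2 times), with a mean of at least 20 CPM in a group, up to 5 members per list with a called difference and 2 called at both times, and a fixed few; other genes in the text were picked with their values in view. A few genes that the rule names are not reported here. The members and the 32 gene lists were chosen with earlier results of these data known. A list's counts and medians cover only members that passed the filter on low counts, which a gene can pass through the group where it is high. They describe those members and not the whole list. Alternatives were other scaling, DESeq2 1.42.0, other filters, a block by replicate letter, a fit of all 52 libraries, and leaving out each library. Genome positions are those of the GENCODE M21 annotation of GRCm38; promoters are RefSeq's.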

Additional observations from a re-analysis of the deposited data

Results flagged for a closer look

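Each library of 27 genes and of the totals was checked for standing apart from the other 3 of its group, by Dixon's test of the gap over the range. Of 112 such groups of 4, 10 had a library apart, where chance gives about 1 in 20. In PGE2-treated cells at 4 h these were Cfp at 453.5 CPM and Mcm6 at 155.7 CPM in replicate C, and Fscn1 at 55.57 CPM in replicate A. In untreated cells at 4 h they were Fscn1 at 73.08, Ccr7 at 274 and H2-DMb1 at 840.4 CPM in replicate A, the shallowest library, and Irf8 at 5415 CPM in replicate D. At 24 h they were Rac2 at 134.3 CPM in replicate C of PGE2-treated cells, Rac2 at 38 CPM in replicate A of untreated cells and Pcna at 77.01 CPM in replicate D of untreated cells. Fscn1 stood high in replicate A of both groups at 4 h.

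The PGE2 effect differed between the times for 235 genes by edgeR's quasi-likelihood test of the difference itself. Genes called in opposite directions at the 2 times had differences of 1.24 for Pycard, 1.55 for Mt1, 0.79 for Itm2b, -1.70 for Id1, -0.86 for Txn1 and -1.09 for Lmnb1 on the log2 scale.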

How the results depend on the processing

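DESeq2 gave 159 genes for the difference (68 higher, 91 lower) and 42 late genes. With no filter on low counts there were 129 genes for the difference, 60 transient and 35 late genes among 17373 tested. The log2 limit of 1.5 left 95 genes for the difference, 148 at 4 h and 88 at 24 h. With an adjusted p of 0.1 for the single times, 10 genes reversed. Leaving out 1 library, the difference held 175 to 261 genes, the effect at 4 h 439 to 557, the effect at 24 h 311 to 468, transient genes 70 to 108, late genes 43 (without replicate B of PGE2-treated cells at 24 h) to 84 (without replicate A of untreated cells at 4 h), sustained genes 120 to 164 and reversed genes 4 to 7. The melanoma medium comparison held 150 to 325, without replicates A and B of the Ptgs-deficient medium, and the poly I:C comparison 361 to 418. Other alternatives kept each of these counts within 1.5 times, and no named gene turned its direction. The cause of these shifts was not tested, beyond the smaller sample or the larger number of genes tested.

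For samples with the same replicate letter, 0 of 24 pairs had a correlation of deviations over 0.1 (median 0.0149, range -0.0858 to 0.0693), against a median of -0.00672 over the 72 other pairs. A library's best match in another group had its own letter in 23 of 48 cases, with 4 letters to match each time, a weak hint of pairing from the data and not from the design. With the letter as a block, 220 genes were called for the difference (105 higher, 115 lower), and 210 with a block within each time; no count moved by over 1.5 times.

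Depth limits low genes: receptors such as Ptger2 and Ptger4 could not be tested.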
